A study of Macaca fascicularis with 7 samples.

Results

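The zona pellucida genes ZP1, ZP2, ZP3 and ZP4 were followed through oocyte maturation in a monkey. They were taken by name: each of the 4 symbols matched 1 row of a deposited table of 28161 usable gene rows, and all 4 passed the filter on low counts that left 16374 genes for testing. The libraries were made from wild-type oocytes of the cynomolgus monkey (Macaca fascicularis). In vitro matured metaphase II oocytes (IVM MII), labelled as treated, gave 3 libraries. In vivo matured metaphase II oocytes (IVO MII), labelled as control, gave 2 libraries, and immature germinal vesicle oocytes (GV), also labelled as control, gave 2. Metaphase II is the stage at which a mature egg waits for the sperm, and the germinal vesicle is the nucleus of an oocyte that has not yet resumed meiosis. The labels used here give neither the number of oocytes in a library nor the animals, their ages or the culture conditions, so the p-values reflect how far these libraries scatter, and part of that scatter may be technical.

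The zona pellucida is the glycoprotein coat of the egg. The growing oocyte makes and secretes its subunits, which polymerise into filaments through a shared ZP domain. ZP2 and ZP3 are the main filament partners, ZP1 cross-links filaments, and ZP4 is a close relative of ZP1 that is present in the human coat and absent from the mouse coat, where the gene is not functional. In mouse and human, the N-terminal part of ZP2 takes part in sperm binding. After fertilisation ZP2 is cleaved by ovastacin, an enzyme released from cortical granules, which blocks further sperm.

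The libraries held 22901970 to 29245733 counts. At 1 CPM (counts scaled to a library of 1000000) or more of the unscaled total, 11166 to 12269 genes were detected in an MII library and 14017 and 14077 in the GV libraries. CPM here and below was taken after TMM scaling (a trimmed mean of log ratios between libraries). Of the 12 oocyte markers looked up, all 12 reached 1 CPM in at least 1 library of each group. Their sums were 7550 to 10800 CPM in IVM MII, 8200 to 9640 CPM in IVO MII and 9970 to 10600 CPM in GV. Of 17 cumulus and granulosa markers found, AMH, PTX3 and NR5A1 were at 0 in all libraries. By the same rule, 4 reached 1 CPM in IVM MII, 6 in IVO MII and 4 in GV. The list summed to 353 to 405 CPM in IVM MII, 728 to 768 CPM in IVO MII and 66.5 to 112 CPM in GV. Most of that sum came from GATM, TNFAIP6, HAS2 and FSHR. Of 12 markers of stroma, theca and endothelium, 5 reached 1 CPM in IVM MII, 4 in IVO MII and 5 in GV. COL3A1 and LUM were at 0 in all libraries, and COL1A1 had at most 2.26 CPM. Others were present: PECAM1 had 9.23 to 30.3 CPM, CDH5 10.3 to 75.4 CPM and ACTA2 0.424 to 13.4 CPM. The sum was 74.0 to 90.9 CPM in IVM MII, 92.3 to 128 CPM in IVO MII and 1090 to 1220 CPM in GV. VWF alone held 991 and 1140 CPM in GV. The 9 blood markers found summed to at most 3.67 CPM in any library. In such libraries fewer cells of a type and less RNA per cell cannot be told apart, and the part of other cell types in the zona values was not tested. The labels place the GV files in another folder than the MII files, so where GV is compared, folder and stage cannot be told apart, whereas IVM MII and IVO MII share a folder.

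The 4 genes lay on separate chromosomes of the deposited table, whose genome build is not given in the sources used here. ZP1 spanned bases 13411459 to 13419979 of chromosome 14 on the minus strand, with 12 exons and an exon length of 1951 bases. ZP2 spanned bases 20478292 to 20492633 of chromosome 20 on the minus strand, with 19 exons and 2268 bases. ZP3 spanned bases 47000724 to 47018331 of chromosome 3 on the minus strand, with 8 exons and 1445 bases. ZP4 spanned bases 11583300 to 11591428 of chromosome 1 on the plus strand, with 12 exons and 1827 bases. The genes differed in how finely they are cut: ZP2 had 10 exons shorter than the 100-base reads, ZP1 and ZP4 had 2 each, and ZP3 had 1. Per the submitters' processing notes the aligner was Bowtie2, which does not split a read over an intron, so the counts of a gene with short exons can be too low. The exon lengths are the same for every library, but such a loss can shift one zona gene against another. Whether the loss differed between libraries was not tested. No other row of the table overlapped a zona gene, and the nearest row on either side lay between 10.4 and 60.4 kb away.

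**Figure D1:**
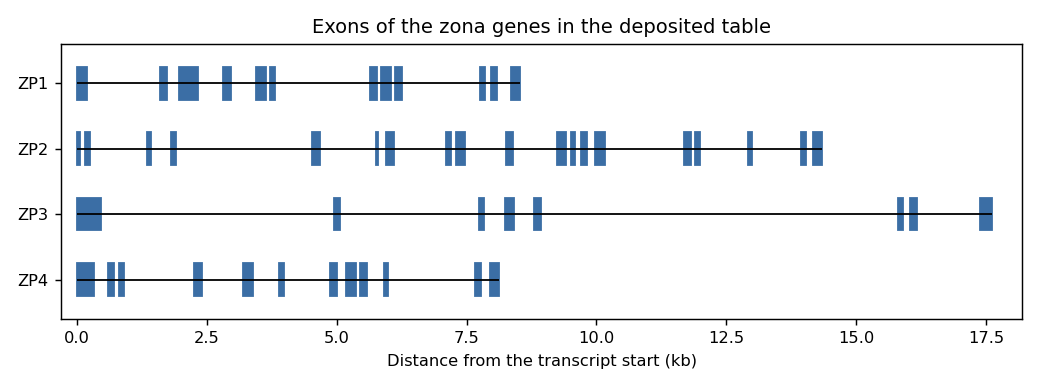
Exon maps of ZP1, ZP2, ZP3 and ZP4 in the deposited table, with distance from the transcript start in kb on the x axis, exons as blocks and introns as lines. ZP2 is cut into 19 exons and ZP3 into 8, although ZP3 has the longest span, 17.6 kb.

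Of the zona genes, ZP2 alone was called between IVM MII and the other groups. It had 1321, 1604 and 1498 RPKM (CPM per kilobase of exon) in the IVM MII libraries, 457 and 332 RPKM in the IVO MII libraries, and 720 and 653 RPKM in the GV libraries. The groups did not overlap: every IVM MII library lay above every GV library, and both GV libraries lay above both IVO MII libraries. In CPM, ZP2 averaged 3344 ± 324 in IVM MII (SD, n = 3), 895 ± 202 in IVO MII (SD, n = 2) and 1557 ± 108 in GV (SD, n = 2). The log2 fold change of ZP2 between IVM MII and IVO MII was 1.90 (SE 0.31, 95% interval 1.20 to 2.60, edgeR adjusted p = 0.0303), a fold of 3.74. Against GV, IVM MII stood at 1.10 (SE 0.30, 95% interval 0.43 to 1.78, edgeR adjusted p = 0.0208), a fold of 2.15. Against GV, IVO MII stood at -0.80 (SE 0.32, 95% interval -1.52 to -0.08), which did not pass at an edgeR adjusted p of 0.0893. Its rise in IVM MII was not the largest: 89.2% of all tested genes had a lower log2 fold change between IVM MII and IVO MII. Between IVM MII and GV, 71.8% did. The ZP2 difference between IVO MII and GV passed by DESeq2 (adjusted p = 0.0487) and by limma voom (adjusted p = 0.0413). It was not called in 13 of 15 alternative fits (other tools or settings, or 1 library left out). A scaled count is a share of a library, and reverse transcription was primed on the poly(A) tail, so amount per oocyte, share of all mRNA and tail length cannot be told apart here.

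The size of the ZP2 difference was steadier than its call. The log2 fold change between IVM MII and IVO MII stayed between 1.60 and 2.15 when each library was left out in turn, while the edgeR adjusted p was above 0.05 in 5 of these 7 fits. It became 0.0581 when GV replicate 1 was left out and 0.0614 for GV replicate 2. The values for IVM MII replicates 1 and 2 were 0.0907 and 0.121, and that for IVO MII replicate 2 was 0.111. A fit of only these 5 MII libraries gave 1.90 at an edgeR adjusted p of 0.071. For IVM MII against GV, the value stayed between 1.01 and 1.16, and the edgeR adjusted p became 0.130 and 0.162 when GV replicate 1 or 2 was left out and 0.0582 for IVM MII replicate 2.

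**Figure D2:**
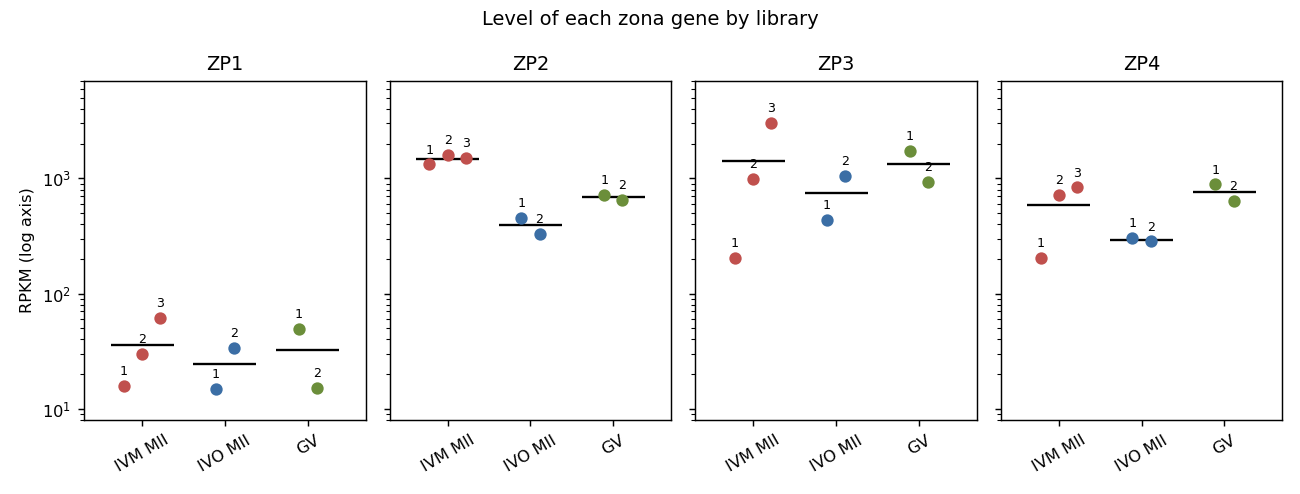
Level of each zona gene in RPKM on a log axis, with 1 point per library (the digit is the replicate number), grouped as IVM MII, IVO MII and GV, and a line at the group mean. ZP2 forms 3 separate groups, while ZP3 covers 204 to 3021 RPKM within IVM MII alone.

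ZP3, the filament partner of ZP2, had 204, 988 and 3021 RPKM in the IVM MII libraries, 437 and 1049 RPKM in the IVO MII libraries, and 1728 and 927 RPKM in the GV libraries. Replicate 1 was the lowest of all 7 libraries and replicate 3 the highest, both in IVM MII, so that this group covered the whole range of the others. The highest IVM MII library was 14.8 times the lowest. In CPM, ZP3 averaged 2029 ± 2100 in IVM MII (SD, n = 3), 1073 ± 626 in IVO MII (SD, n = 2) and 1918 ± 818 in GV (SD, n = 2). The log2 fold change was 0.92 between IVM MII and IVO MII (SE 0.91, 95% interval -1.15 to 2.98, edgeR adjusted p = 0.598), -0.84 between IVO MII and GV (SE 0.97, -3.05 to 1.38, edgeR adjusted p = 0.549) and 0.08 between IVM MII and GV (SE 0.88, -1.93 to 2.09, edgeR adjusted p = 0.953). None of the 3 values passed, and the intervals are too wide to call the groups alike.

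ZP1, whose product cross-links the filaments, was the lowest of the 4 in every library. It had 15.7, 30.2 and 61.3 RPKM in the IVM MII libraries, 14.9 and 33.7 RPKM in the IVO MII libraries, and 49.2 and 15.2 RPKM in the GV libraries. Each group held a library near 15 RPKM and one at least 2.25 times higher, so the groups overlapped throughout. In CPM, ZP1 averaged 69.8 ± 45.5 in IVM MII (SD, n = 3), 47.4 ± 25.8 in IVO MII (SD, n = 2) and 62.8 ± 47.0 in GV (SD, n = 2). The log2 fold change was 0.56 between IVM MII and IVO MII (95% interval -1.0 to 2.11), -0.40 between IVO MII and GV (-2.09 to 1.28) and 0.15 between IVM MII and GV (-1.39 to 1.69). None of them passed (edgeR adjusted p = 0.679, 0.713 and 0.880). At its lowest, ZP1 had 572 counts, for which counting error is 4.2% if each count is independent. PCR copies are not independent molecules, so the sampling error can be larger, and its part in these differences was not tested.

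ZP4, the relative of ZP1, had 203, 714 and 834 RPKM in the IVM MII libraries, 305 and 284 RPKM in the IVO MII libraries, and 888 and 639 RPKM in the GV libraries. IVO MII lay below GV without overlap, while IVM MII held both the lowest library of all and 2 at the level of GV. In CPM, ZP4 averaged 1067 ± 612 in IVM MII (SD, n = 3), 538 ± 26.5 in IVO MII (SD, n = 2) and 1394 ± 321 in GV (SD, n = 2). Its log2 fold change between IVM MII and IVO MII was 0.99 (SE 0.54, 95% interval -0.24 to 2.22, edgeR adjusted p = 0.329), and between IVM MII and GV it was -0.39 (SE 0.52, -1.57 to 0.80, edgeR adjusted p = 0.588). For IVO MII against GV it was -1.37 (SE 0.58, -2.70 to -0.05), with an edgeR adjusted p of 0.108. That difference passed without IVM MII replicate 1 (edgeR adjusted p = 0.0228) and in a fit of only IVO MII and GV (edgeR adjusted p = 0.0278). It stayed below 0 but was not called in 13 of 15 alternative fits (other tools or settings, or 1 library left out).

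**Figure D3:**
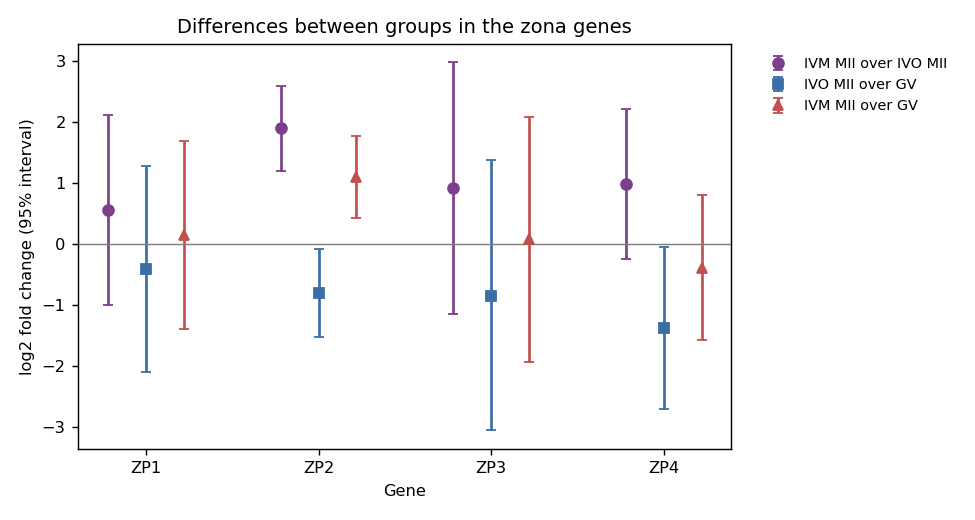
Log2 fold change of each zona gene (y axis, with 95% intervals from edgeR) in the 3 comparisons IVM MII over IVO MII, IVO MII over GV and IVM MII over GV. The ZP2 intervals lie off 0 in all 3 comparisons, from 1.20 to 2.60, -1.52 to -0.08 and 0.43 to 1.78, whereas those of ZP1 and ZP3 span 0 each time.

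Counted over the family, 1 of 4 zona genes was called between IVM MII and IVO MII, where 1.47% of the 16374 genes tested were called in either direction and 0.892% were called higher. That background was itself unsteady: 241 genes were called, against 0 to 1277 when 1 library was left out (0 without IVM MII replicate 1 or 2, 1277 without IVM MII replicate 3) and 54 to 2027 under the other settings. The groups did not overlap for that 1 gene, as for 33.8% of all tested genes. For IVM MII against GV, 1 of 4 was called, against 36.3% of all genes (18.5% called higher), and 1 of 4 did not overlap, against 69.1%. For IVO MII against GV, edgeR called 0 of 4, against 28.1% of all genes. There, 2 of 4 had an unadjusted edgeR p under 0.05, for which the share of all genes is not given here. DESeq2 and limma voom called 1 each (38.1% and 37.1% of all genes), and 2 of 4 did not overlap, against 72.8% of all genes. With 4 genes, these counts are given as a description. The median log2 fold change of the 4 was 0.95 between IVM MII and IVO MII (0 over all tested genes), -0.82 between IVO MII and GV (-0.16 over all) and 0.12 between IVM MII and GV (-0.10 over all). The last 2 comparisons share the GV libraries, and the first shares libraries with both, so the 3 medians are not independent.

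The make-up of the zona mRNA differed from library to library. As a share of the summed RPKM of the 4 genes, ZP2 held 75.7%, 48.1% and 27.7% in the IVM MII libraries, 37.7% and 19.5% in the IVO MII libraries, and 21.3% and 29.2% in the GV libraries. ZP3 held 11.7%, 29.6% and 55.8% in the IVM MII libraries, 36% and 61.8% in the IVO MII libraries, and 51.0% and 41.5% in the GV libraries. ZP3 was the most abundant zona mRNA per length in both GV libraries, in IVO MII replicate 2 and in IVM MII replicate 3, and ZP2 was the most abundant in the other 3 libraries. ZP4 held 11.7% to 21.4% in IVM MII, 16.7% to 25.1% in IVO MII and 26.2% to 28.6% in GV. ZP1 held 0.902% to 1.13% in IVM MII, 1.23% to 1.98% in IVO MII and 0.678% to 1.45% in GV.

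These shares do not depend on how libraries are scaled against each other. The mean share of ZP2 was 50.5% ± 24.1 in IVM MII (SD, n = 3), 28.6% ± 12.9 in IVO MII (SD, n = 2) and 25.2% ± 5.62 in GV (SD, n = 2). The difference between IVM MII and IVO MII was 21.9 percentage points (exact two-sided permutation p = 0.4, where 0.1 is the smallest that 3 against 2 libraries can give). Between IVM MII and GV it was 25.3 points (exact permutation p = 0.3, smallest possible 0.1), and between IVO MII and GV 3.36 points (exact permutation p = 1, smallest possible 0.333). Single libraries moved these values: the difference between IVM MII and IVO MII became 9.27 points once the first IVM MII library was left out, 33.3 once the third was, and 12.8 once IVO MII replicate 2 was, and that between IVM MII and GV was 12.6 without IVM MII replicate 1. The one between IVO MII and GV turned to -5.73 without IVO MII replicate 1 and to -0.614 without GV replicate 1, and was 12.4 without IVO MII replicate 2 and 7.33 without GV replicate 2. The share of ZP1 was lower in all 3 IVM MII libraries than in both IVO MII libraries (0.980% ± 0.132 against 1.61% ± 0.531), which gives the smallest p this design allows, 0.1 by the exact permutation test. The 4 genes gave 12 such comparisons, and none can pass a threshold of 0.05.

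**Figure D4:**
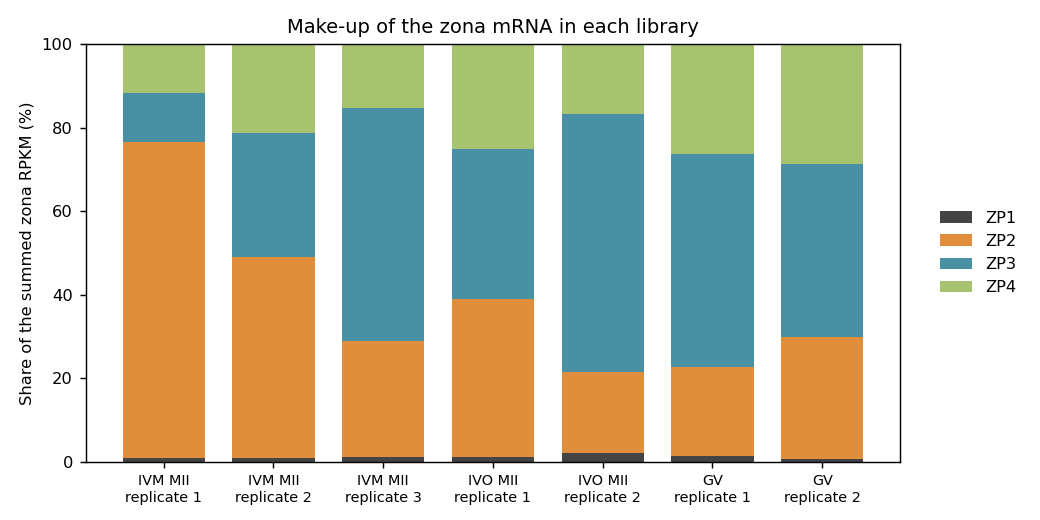
Share of ZP1, ZP2, ZP3 and ZP4 in the summed zona RPKM (%, y axis), with 1 bar for each IVM MII, IVO MII and GV library. The ZP2 share runs from 75.7% in IVM MII replicate 1 to 27.7% in IVM MII replicate 3, and the ZP3 share from 11.7% to 55.8% in the same libraries.

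In total, the 4 genes reached 1744, 3336 and 5415 RPKM in the IVM MII libraries, 1214 and 1699 RPKM in the IVO MII libraries, and 3384 and 2234 RPKM in the GV libraries. Both IVO MII libraries lay below all other libraries. Without ZP2, the sum was 423, 1732 and 3916 RPKM in IVM MII, 756 and 1367 RPKM in IVO MII, and 2664 and 1581 RPKM in GV, so that IVM MII replicate 1 became the lowest library of all. By RPKM, ZP2 ranked 61st, 35th and 36th among all genes of the table in the IVM MII libraries, 184th and 188th in the IVO MII libraries, and 55th and 68th in the GV libraries. ZP3 ranked between 14th, in GV replicate 1, and 530th, in IVM MII replicate 1.

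Pooled over the groups, ZP2 was the steadiest zona gene between libraries. Over the 3 groups, the pooled SD of log2(CPM + 1) between libraries of a group was 0.199 for ZP2, 1.48 for ZP3, 0.988 for ZP1 and 0.807 for ZP4, against a median of 0.421 over the 5854 tested genes with a mean of at least 20 CPM. Of these genes, 10.1% were steadier than ZP2, whereas 99.4% were steadier than ZP3, 95.7% steadier than ZP1 and 88.9% steadier than ZP4. The SD of ZP2 was 0.142 in IVM MII, 0.328 in IVO MII and 0.0999 in GV, that in IVO MII near the median of 0.404 over these genes. ZP4 was uneven within IVM MII (SD 1.12) but closer than ZP2 between the IVO MII libraries (SD 0.0711), and had 0.335 in GV. Within IVM MII alone, ZP3 had 1.95.

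The uneven genes tended to be high and low in the same libraries. In IVM MII, replicate 3 exceeded replicate 1 by 3.90 times for ZP1, 14.8 times for ZP3 and 4.10 times for ZP4, but by 1.13 times for ZP2. In IVO MII, replicate 2 exceeded replicate 1 by 2.25 times for ZP1 and 2.4 times for ZP3, while ZP4 was at 0.933 times and ZP2 at 0.725 times. In GV, replicate 1 exceeded replicate 2 by 3.25 times for ZP1, 1.86 times for ZP3, 1.39 times for ZP4 and 1.10 times for ZP2. The libraries high in ZP1 and ZP3 were also the deeper ones of their group: IVM MII replicates 1, 2 and 3 had 24332176, 26616841 and 29245733 counts and TMM factors of 0.7662, 0.8893 and 0.9095, IVO MII replicates 1 and 2 had 23550299 and 26343911 counts and factors of 0.8336 and 0.9848, and GV replicates 1 and 2 had 23249732 and 22901970 counts and factors of 1.423 and 1.382. The part of library depth and make-up in these zona values was not tested. DTX2, which encodes a ubiquitin ligase and is the row next to ZP3 at 18.3 kb on the same strand, had 116, 104 and 384 CPM in IVM MII, 210 and 550 CPM in IVO MII, and 247 and 172 CPM in GV, and was also highest in IVM MII replicate 3, IVO MII replicate 2 and GV replicate 1 within their groups. This order was not particular to the row beside ZP3: of the 8 neighbouring rows of the zona genes, 3 were highest in those libraries, also TMEM159 beside ZP2 (15.3, 14.4 and 27.3 CPM in IVM MII, 16.0 and 21 CPM in IVO MII, 10.8 and 8.98 CPM in GV) and the low row LOC102127542 beside ZP4 (1.29, 0.549 and 4.17 CPM in IVM MII, 0.713 and 5.44 CPM in IVO MII, 8.59 and 5.60 CPM in GV). The share of all genes with this order is not given here, so the count of neighbours is only a description.

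**Figure D5:**
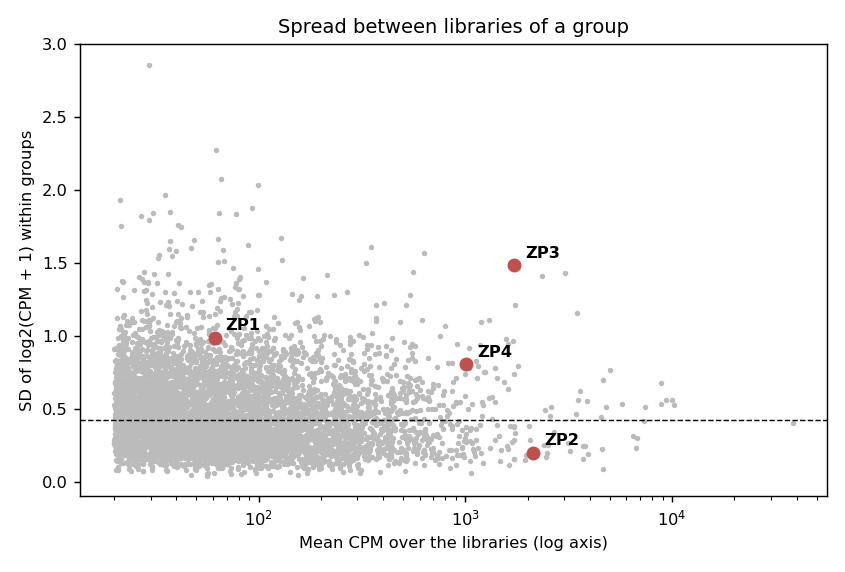
SD of log2(CPM + 1) between libraries of a group, pooled over IVM MII, IVO MII and GV (y axis), against the mean CPM on a log axis, with 1 grey point for each of 5854 genes and the zona genes in red. The dashed line is the median SD, 0.421, and ZP2 lies below it at 0.199 while ZP3 stands at 1.48.

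Across the 7 libraries, the zona genes did not form 1 pattern. As a description, Pearson's r of log2(CPM + 1) was 0.852 between ZP1 and ZP3, 0.836 between ZP3 and ZP4 and 0.627 between ZP1 and ZP4, but 0.085 to 0.356 between ZP2 and the other 3. These points share groups and library depth. The genes named next were chosen for the highest r, so a shared library pattern follows from that choice. Among 4944 other genes with a symbol and a mean of at least 20 CPM, the nearest to ZP4 was GDF9, the growth factor that the oocyte sends to cumulus cells (r = 0.967). GDF9 had 2160, 4870 and 5870 CPM in IVM MII, 2290 and 2770 CPM in IVO MII, and 4830 and 4220 CPM in GV, low in the same 3 libraries as ZP4 and high in the same 4. FRZB, a secreted Wnt antagonist (0.953), and the glyoxalase gene HAGH (0.911) followed, HAGH with 0.966 CPM in IVM MII replicate 1 and 0.612 and 1.20 CPM in the IVO MII libraries.

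The nearest genes below were again chosen by r, so a likeness to the zona gene is built in. Those nearest to ZP2 were all higher in IVM MII than elsewhere. ART3, of the ADP-ribosyltransferase family (r = 0.986), had 204, 135 and 139 CPM in IVM MII, 2.19 and 0.308 CPM in IVO MII, and 20.2 and 10.2 CPM in GV. UGCG, which encodes glucosylceramide synthase (0.977), had 250, 230 and 224 CPM in IVM MII, 106 and 67.7 CPM in IVO MII, and 123 and 133 CPM in GV. The zinc finger gene ZNF330 (0.976) was the third. Nearest to ZP3 were THRAP3, a gene of mRNA processing (0.955), PPP2R1A, the scaffold of protein phosphatase 2A (0.944), and ATP6V1B2, of the vacuolar proton pump (0.931). Their levels were far lower and less uneven: PPP2R1A had 13.1, 24.0 and 32.6 CPM in IVM MII, 15.3 and 29.1 CPM in IVO MII, and 35.8 and 23.9 CPM in GV. Nearest to ZP1 were SERPINE2, a secreted protease inhibitor (0.932), SLC5A11, a sodium-coupled inositol transporter (0.876), and ZP3 itself as the third. SERPINE2 had 144, 214 and 393 CPM in IVM MII, 118 and 181 CPM in IVO MII, and 265 and 80.2 CPM in GV, in the same library order within each group as ZP1.

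Other genes of zona biology were read from 6 lists with 114 members, of which 103 were tested. Between IVM MII and IVO MII edgeR called 0 of the 103, against 1.47% of all genes. There, 26 had an unadjusted edgeR p under 0.05. The share of all genes under that p is not given here, so the 26 cannot be set against it. DESeq2 called 16 higher and 4 lower in IVM MII, against 12.5% of all genes called either way by that tool. By limma voom, 2 were called higher and 1 lower, against 3.04%. Between IVO MII and GV, 19 were higher and 17 lower of 103, against 14.6% higher and 13.5% lower over all genes; DESeq2 and limma voom called 24 lower each, against 20.8% and 21%. Between IVM MII and GV, 29 were higher and 11 lower, against 18.5% and 17.8%. The lower count varied with the tool: DESeq2 called 30 higher and 17 lower, against 44.0% of all genes either way and 23.4% lower, and limma voom 33 higher and 20 lower, against 45.3% and 25.4%.

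Of the transcription factors that act on zona genes or in the same oocyte programme, 11 were tested, with medians of 0.21, -0.03 and 0.44 in the 3 comparisons (IVM MII over IVO MII, IVO MII over GV and IVM MII over GV). In IVO MII 3 rose and 3 fell against GV, and in IVM MII 4 rose and 2 fell. Over all tested genes, 14.6% were called higher and 13.5% lower in IVO MII, and 18.5% and 17.8% in IVM MII. FIGLA, which drives Zp1, Zp2 and Zp3 in the mouse through E-boxes, had 16.8, 26.2 and 13.1 CPM in IVM MII, 8.31 and 8.68 CPM in IVO MII, and 83.5 and 92.8 CPM in GV. It fell in both kinds of MII oocyte, with log2 fold changes of -2.23 in IVM MII (SE 0.38, edgeR adjusted p = 0.00327) and -3.37 in IVO MII (SE 0.46, edgeR adjusted p = 0.00249). The oocyte homeobox gene LHX8 fell in IVO MII, at 6.43 ± 4.27 CPM in IVO MII against 78.2 ± 20.9 CPM in GV (SD, n = 2 each; log2 fold change -3.60, edgeR adjusted p = 0.0125, 0.0503 once GV replicate 1 was left out and 0.0688 for IVO MII replicate 1). TCF4, an E-protein of the kind that pairs with FIGLA, rose in IVM MII to 7.01 ± 5.98 CPM (SD, n = 3) against 1.28 ± 0.463 CPM in GV (SD, n = 2; log2 fold change 2.45, edgeR adjusted p = 0.0415), a call lost without either GV library (0.141 and 0.234), with IVM MII replicate 3 left out (0.0952), with IVO MII replicate 2 left out (0.0559), by limma voom (0.0617), with the replicate block (0.109) and with only the groups compared (0.0542). ZP2 was higher in IVM MII than in GV while FIGLA was lower, and a link between them was not tested.

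In the list of zona cleavage and cortical granule release, 15 genes were tested, with medians of 0.30, -0.94 and -0.30 in the same order. In IVO MII 1 rose and 3 fell against GV, and in IVM MII 2 rose and 2 fell. The shares over all tested genes were 14.6% higher and 13.5% lower in IVO MII, and 18.5% and 17.8% in IVM MII. ASTL, which encodes ovastacin, the protease that cleaves ZP2, had 17.2, 83.3 and 34.3 CPM in IVM MII, 6.22 and 11.1 CPM in IVO MII, and 64.8 and 45.8 CPM in GV. All 3 IVM MII libraries lay above both IVO MII libraries, without passing the test (log2 fold change 2.38, SE 0.68, edgeR adjusted p = 0.105). These groups did not overlap, either way, for 33.8% of all tested genes. ASTL fell in IVO MII against GV (log2 fold change -2.68, SE 0.72, edgeR adjusted p = 0.0255), a call that was lost without any 1 of the 4 libraries compared (edgeR adjusted p = 0.127 and 0.0559 for IVO MII replicates 1 and 2, 0.0993 and 0.0560 for GV replicates 1 and 2). NAPA, whose product recycles the membrane fusion machinery, fell to 3.73 ± 2.75 CPM in IVO MII (SD, n = 2) and 5.62 ± 3.49 CPM in IVM MII (SD, n = 3), against 46.9 ± 19.1 CPM in GV (SD, n = 2). Its edgeR adjusted p of 0.0111 in IVO MII became 0.0547 when IVO MII replicate 1 was left out and 0.0641 for GV replicate 1, and that of 0.00864 in IVM MII became 0.0697 without GV replicate 1. VAMP2, of the vesicle fusion proteins, fell by 3.09 on the log2 scale in IVM MII against GV (edgeR adjusted p = 0.0114, 0.145 without GV replicate 2).

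Genes that fold, glycosylate and export secreted proteins moved both ways. Of 14 tested folding genes (medians 0.34, -0.19 and 0.34), 2 rose and 4 fell between IVO MII and GV, and 3 rose and 2 fell between IVM MII and GV. Beside these stand 14.6% higher and 13.5% lower over all genes in IVO MII, and 18.5% and 17.8% in IVM MII. PPIB, a prolyl isomerase of the endoplasmic reticulum, fell in both, with log2 fold changes of -3.55 in IVM MII and -2.69 in IVO MII (edgeR adjusted p = 0.00140 and 0.00462). ERO1B, which supplies oxidising power for disulfide bonds, rose to 56.9 ± 6.72 CPM in IVM MII (SD, n = 3) against 8.59 ± 0.817 CPM in GV (SD, n = 2; log2 fold change 2.73, edgeR adjusted p = 0.00164). The chaperone gene HSPA5 fell in IVO MII by 3.47 (edgeR adjusted p = 0.0343), and lost its call without any 1 of the IVO MII and GV libraries (edgeR adjusted p = 0.0632 to 0.155).

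Of 25 tested glycosylation genes (medians 0.18, 0.56 and 0.97), 6 rose and 2 fell between IVO MII and GV, and 9 rose and 3 fell between IVM MII and GV. MAN1A1, a Golgi mannosidase that trims N-glycans, rose to 107 ± 54.0 CPM in IVO MII (SD, n = 2) and 82.0 ± 17.6 CPM in IVM MII (SD, n = 3), against 4.30 ± 0.0396 CPM in GV (SD, n = 2). MAN2A1, the next mannosidase of the same path, rose by 3.81 in IVO MII and 3.88 in IVM MII on the log2 scale (edgeR adjusted p = 0.00267 and 0.00172). Of 31 tested export genes (medians 0.10, 0.24 and 0.43), 7 rose and 5 fell between IVO MII and GV, and 11 rose and 1 fell between IVM MII and GV. For both lists, the shares over all genes were 14.6% higher and 13.5% lower in IVO MII, and 18.5% and 17.8% in IVM MII. SEC24D and SEC24A, which load cargo into vesicles leaving the endoplasmic reticulum, rose by 4.59 and 3.51 in IVO MII, and by 3.30 and 3.53 in IVM MII.

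Of the other ZP-domain genes, 7 of 12 were tested. Between IVM MII and IVO MII or between IVO MII and GV, edgeR called 0, against 1.47% and 28.1% of all genes. In each of these comparisons 2 of the 7 had an unadjusted edgeR p under 0.05, DESeq2 called 1 lower, and limma voom called 0 and 2 lower. Medians were 0, -0.37 and -1.93 in the same order. The 0 is the value of TGFBR3L, which was at 0 CPM in all MII libraries. TGFBR3L had 0.302 and 0.411 CPM in GV, and UMODL1 had 1.51 and 1.11 CPM there, against 0 to 0.263 CPM in MII. Both passed the filter only through GV. A fall against GV was therefore built in for them, and it weighs on the medians and can enter the counts lower. In IVM MII against GV, 1 of 7 fell: ZPLD1 was at 2.60 ± 0.0323 CPM in IVM MII (SD, n = 3) and 9.91 ± 6.02 CPM in GV (SD, n = 2; log2 fold change -1.93, edgeR adjusted p = 0.0267). That call was lost without GV replicate 2 (edgeR adjusted p = 0.359) and without IVM MII replicate 1 or 2 (0.0618 and 0.0668), and with the replicate block (0.0690). Other tools called more of the 7 lower here, 2 by DESeq2 and 4 by limma voom, and 3 had an unadjusted edgeR p under 0.05. Over all genes, edgeR called 17.8% lower in this comparison, DESeq2 23.4% and limma voom 25.4%.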

How the data were processed

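Poly(A)-primed, template-switched and PCR-amplified cDNA was sequenced with paired ends of 100 bases, per the labels' protocols. The authors deposited raw, unscaled counts for each gene, along with its exon length. The submitters' processing notes name featureCounts 2.0.1 for counting, SAMtools 1.15.1, the aligner Bowtie2 2.4.5, the trimmer Trim Galore 0.6.7 and DESeq2. How multi-mapping reads were handled, whether strand was used and which genome build was taken are not stated in those notes. Genes with near-identical copies are uncertain. The lines of 3 long genes were broken in the table (10 lines) and left out, and 0 columns were unmapped.

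All 7 libraries entered 1 fit with edgeR 4.0.16 in R 4.3.3 (TMM scaling, filterByExpr, glmQLFit and glmQLFTest at default settings, no covariate). Tests were two-sided, with Benjamini-Hochberg adjustment over the 16374 tested genes and a threshold of 0.05. The SE is the log2 fold change divided by the square root of its F statistic. RPKM are TMM-scaled CPM per kilobase of the deposited exon length, and values after ± are SDs. Shares were compared by exact permutation over libraries. Alternatives were DESeq2 1.42.0, limma 3.58.1 (voom), other scalings, no filter, fewer groups, a replicate block and each library left out. Fits were tested on simulated data. Named genes were the 4 members, the 2 largest called changes per list and comparison, the 3 most correlated genes per member, and neighbouring rows. Some of the cell type markers looked up were named as well. DTX2, TMEM159 and LOC102127542 were singled out from the neighbours after their values were seen. Shares of all genes called by DESeq2 are of the edgeR-tested genes with a DESeq2 adjusted p. Members, lists and rules were chosen with earlier results of these data known. Python 3.11.15 with pandas 2.3.3 read the tables. Intervals cover counting and replicate error as fitted, and PCR copies are not independent molecules.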

Additional observations from a re-analysis of the deposited data

How the results depend on the processing

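For the 12 zona values (4 genes in 3 comparisons), 147 of 180 alternative fits kept the direction and the side of the threshold. ZP2 was higher in IVM MII in every fit run, at 1.78 to 1.92 against IVO MII in the fits that kept all libraries of these groups, and its call was lost with only the groups compared (1.90, edgeR adjusted p = 0.071). Left-out libraries gave 1.60 to 2.15 for it, and 1.01 to 1.16 against GV. Between IVO MII and GV, ZP2 passed by DESeq2 (-0.89) and limma voom (-0.82), and ZP4 with only the groups compared (-1.36), with -1.61 to -1.14 when a library was left out. ZP3 was lower in IVO MII than in GV in all 15 alternatives (-1.16 to -0.82, and -1.62 to -0.34 with a library left out), without passing in any. ZP1 in all 3 comparisons, and ZP3 in the other two, had no stable direction. With the replicate block, ZP1 turned to -0.08 and ZP3 to -0.45 between IVM MII and IVO MII, and to -0.57 and -1.61 between IVM MII and GV. There, ZP1 was -0.0086 with RLE size factors and -0.01 by DESeq2, and ZP3 was -0.09 with each of these, -0.02 with upper quartile scaling and -0.55 by limma voom. With libraries left out, ZP1 ran from -0.09 to 1.18, -1.12 to 0.66 and -0.52 to 1.22 in the comparisons IVM MII over IVO MII, IVO MII over GV and IVM MII over GV. ZP3 ran from -0.32 to 1.61 and, against GV in IVM MII, from -1.18 to 0.59, and ZP4 there from -0.76 to 0.0034. The difference in the ZP2 share ran from 9.27 to 33.3, -5.73 to 12.4 and 12.6 to 36.7 percentage points. The cause of these reversals was not tested.

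The number of genes called between IVM MII and IVO MII, 241, was 731 with no filter, 2027 by DESeq2, 497 by limma voom, 772 with the newer edgeR fit (legacy=FALSE), 54 with only the groups compared and 1238 with the replicate block. It ran from 0 to 1277 with libraries left out, and from 1484 to 5517 between IVO MII and GV (4596 in the full data) and 2110 to 6716 between IVM MII and GV (5949). The 0 stands for edgeR without IVM MII replicate 1 or 2, where 2703 and 2549 genes had an unadjusted p under 0.05. Upper quartile scaling called 127 higher and 125 lower, against 146 and 95, and shifted the median over all tested genes to -0.11, where TMM gave 0. The replicate block kept the ZP2 calls. Same-numbered libraries did not all deviate together (r of their deviations 0.353 and -0.177 between IVM MII and IVO MII, -0.234 between IVO MII and GV, -0.171 and 0.11 between IVM MII and GV), so the numbers are not taken as pairs. IVO MII replicate 2 has that number in its title but 3 in its file, so the block and this check rest on an uncertain number. For the named list genes, tried under the same alternatives after seeing the data, 25 of 315 fits lost the call and 0 reversed. With 2 or 3 libraries a group, the intervals of the ZP1 and ZP3 values include 0 in every comparison, as do those of ZP4 except between IVO MII and GV (-2.70 to -0.05).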
